A study of Solanum lycopersicum with 24 samples.

Results

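The genes described here are abundant transcripts of tomato leaves whose level in wild type (WT) fell to 25% or less after 1 h of heat stress (HS). They were chosen on levels in the 6 WT libraries. Members are genes on numbered chromosomes with a mean of 50 CPM (counts scaled to a common library size) or more in WT control. Their mean in WT HS was at most 25% of that. This gave 165 members among 24583 genes with a read sum of 10 or more, and 3373 genes on numbered chromosomes reached 50 CPM in WT control. RNA-seq was performed on 24 libraries, 3 for each of 4 genotypes (WT, the knockouts rs2z35 and rs2z36, and the double knockout rs2z35 36) in control and HS. All were excised leaves of 6-week-old plants, held for 1 h at 25°C (control) or at 40°C on wet tissue in sealed dishes (HS). The methods call the 3 replicates biological and name 6 plants, but not how many went into a library. The double mutant is a line from a cross of the homozygous single mutants, and the number of lines behind each single mutant is not given in the sources used here. Values of WT, and differences from WT, are a description, since WT chose the members. The 18 mutant libraries hold the tests. They entered the choice only through the read-sum filter and the scaling factors, which used all 24 libraries.

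RS2Z35 and RS2Z36 belong to the SR proteins, splicing factors that bind exons of precursor messenger RNA, and form a plant clade with zinc knuckles; both were disrupted by CRISPR in these lines. When a leaf is heated, heat shock factors switch on the genes of chaperones within minutes, and at the same time the messenger RNAs of many proteins of growth, cell division and defence become scarcer. How far a messenger RNA can fall in an hour depends on how fast it is made and how fast it is degraded, and counts of reads do not separate these. A fall in CPM is also a fall relative to the other RNAs of the same library, and in a whole leaf fewer cells of a type and less RNA per cell cannot be told apart.

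The libraries held 16853134 to 23929283 counts. Scaling factors differed between conditions, at 1.24 to 1.33 in control and 0.74 to 0.85 in HS, and the 10 most abundant genes held 4.61 to 5.62% of control libraries and 12.2 to 14.9% of HS libraries. The HS counts had been adjusted for batches by the authors and the control counts had not, and the part of this step in the HS changes was not tested. Of the leaf markers, 3 described genes of chlorophyll a-b binding proteins or the Rubisco small subunit summed to 3385 to 4782 CPM in control and 2357 to 4877 CPM in HS, and none was a member. The 3 described terpene synthases, known from trichomes, summed to 120.1 to 245 CPM in control and 78.1 to 162 CPM in HS, and their part in the results was not tested. Solyc05g054920, one of a pair of genes described as RS2Z32 splicing factors, was at 31.6 to 33.9 CPM in rs2z35 control and 30.7 to 32.3 CPM in rs2z35 36 control, against 183 to 204 CPM in WT. In HS it was at 42.7 to 51.1 CPM in rs2z35 and 42.7 to 49.5 CPM in rs2z35 36, against 217 to 254 CPM in WT. The other, Solyc09g005980, was at 35.2 to 44.9 CPM in rs2z36 control and 33.7 to 34.8 CPM in rs2z35 36 control. It was at 53.2 to 64.0 CPM in WT control and 68.8 to 78.5 CPM in rs2z35 control. In HS this gene was less apart, at 89.2 to 93.4 CPM in rs2z36 and 84.7 to 93.8 CPM in rs2z35 36, against 104 to 126 CPM in WT.

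The members stood low in HS in all 3 mutants. Their summed level was 26953 to 36860 CPM over the 9 mutant control libraries and 4267 to 5985 CPM over the 9 mutant HS libraries, so the ranges did not overlap. As a share of the raw counts, the members took 3.39 to 4.70% in mutant control and 0.314 to 0.508% in mutant HS. With edgeR's quasi-likelihood test on the 18 mutant libraries (|log2FC| above 1 and adjusted p below 0.01, the study's thresholds), 165 members were called lower in HS in rs2z35, 163 in rs2z36 and 162 in rs2z35 36. The background was 11.2% of the 24218 genes tested in rs2z35, 11.2% in rs2z36 and 11.4% in rs2z35 36. Among genes of 50 CPM or more in the mutant's own control, 14.7%, 14.4% and 14.2% were called lower. The members' median log2FC was -2.63 in rs2z35, -2.73 in rs2z36 and -2.66 in rs2z35 36, where the median of all genes was -0.03, -0.03 and -0.04. None was called higher in any mutant, as 11.5%, 11.7% and 12.3% of all genes were. In each mutant the 3 HS libraries lay under the 3 control libraries without overlap for 164 members, as they did for 31.2% of all genes in rs2z35, 30.1% in rs2z36 and 31.4% in rs2z35 36. With library totals in place of TMM factors the median of all genes shifted to -0.69, -0.71 and -0.74 and that of the members to -3.30, -3.40 and -3.37.

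**Figure D1:**
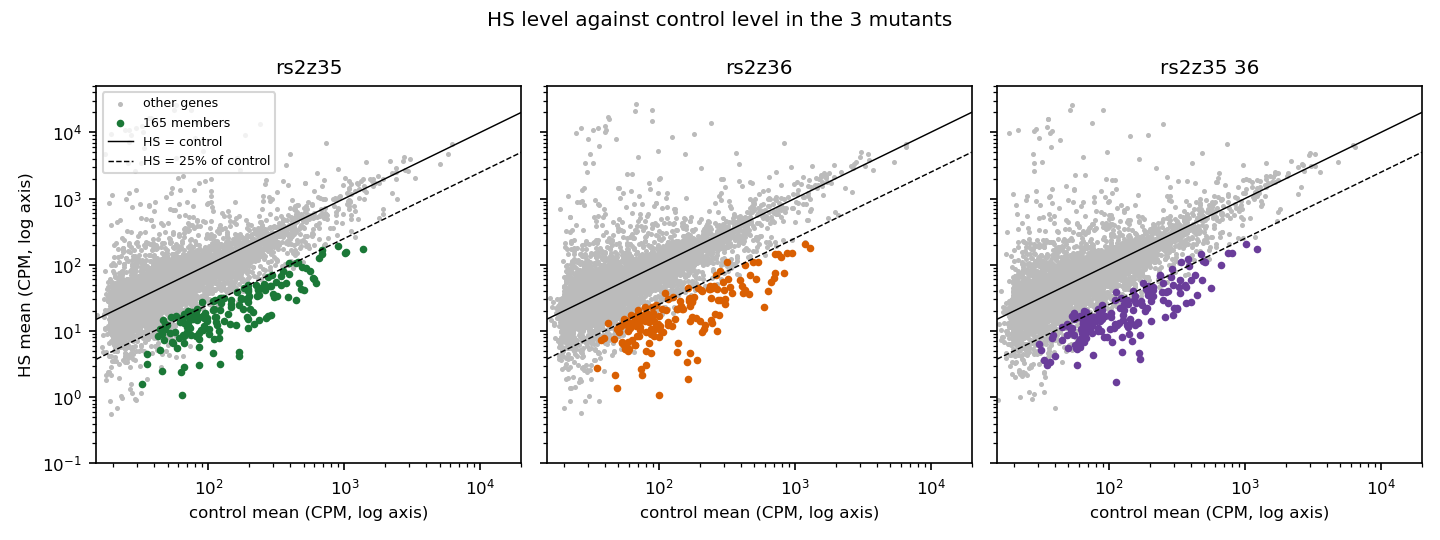
Mean level in HS (vertical log axis, CPM) against mean level in control (horizontal log axis, CPM) in each mutant; coloured points are the 165 members, grey points the other genes of 20 CPM or more in mutant control, the full line marks equal levels and the broken line 25%. Most members lie under the broken line in every mutant, 148 of 165 in rs2z35, 148 in rs2z36 and 141 in rs2z35 36.

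The limit that defined the members in WT was kept by most of them in the mutants. The HS mean was at or under 25% of the control mean for 148 members in rs2z35, 148 in rs2z36 and 141 in rs2z35 36. Of all genes with 50 CPM or more in that mutant's control, 5.52%, 5.7% and 5.49% were as low. All 3 mutants kept it for 134 members, 2 mutants for 12, 1 mutant for 11 and none for 8. The median member was left with 16.1% of its control mean in rs2z35, 15.1% in rs2z36 and 15.8% in rs2z35 36. In the choice on WT, Solyc07g024000, Solyc12g057060 and Solyc03g111810 were just inside the limit at 24.99, 24.93 and 24.75% of WT control, and Solyc06g062370, Solyc07g007930 and Solyc08g077780 just outside at 25.02, 25.17 and 25.18%. At the other limit, Solyc02g086260, Solyc06g068500 and Solyc01g009565 entered with 50.6, 50.6 and 51.1 CPM in WT control, and Solyc02g089080, Solyc01g095630 and Solyc01g010250 stayed out with 49.9, 49.7 and 49.4 CPM. When the same rule was applied to each mutant's own libraries, 184 genes met it in rs2z35, 195 in rs2z36 and 187 in rs2z35 36. Of these, 136, 141 and 129 were members, which is 82.4, 85.5 and 78.2% of the members and 73.9, 72.3 and 69.0% of the mutants' own genes.

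**Figure D2:**
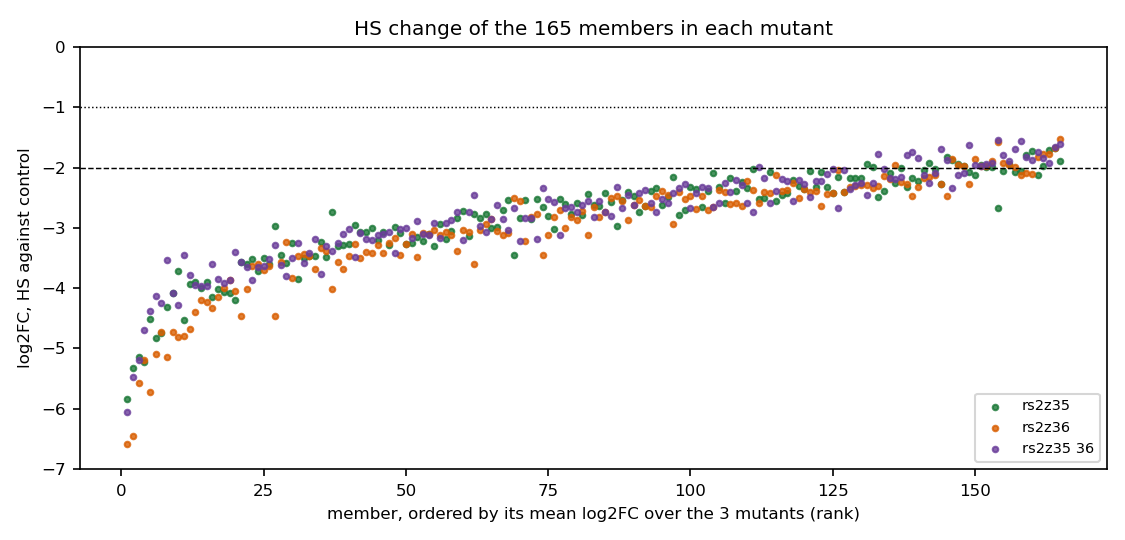
The log2FC of HS against control (vertical axis) of each member in rs2z35, rs2z36 and rs2z35 36, with the members ordered by their mean over the 3 mutants (horizontal axis, rank); the broken line marks a fall to 25% and the dotted line the call threshold of -1. The points of the 3 mutants run together from about the same strongest to the same weakest fall, between -6.58 and -1.52.

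The depth of the fall differed widely among members and ran in a like order in the 3 mutants. The mean fold over the 3 mutants ran from 3.19-fold to 71.3-fold with a median of 6.50-fold: 17 members fell by up to 4-fold, 90 by 4- to 8-fold, 41 by 8- to 16-fold, 13 by 16- to 32-fold and 4 by more than 32-fold. Across the 165 members, which are not independent of each other and share libraries within a mutant, the log2FC of rs2z35 and rs2z36 had a Pearson r of 0.92 and a Spearman rho of 0.90, those of rs2z35 and rs2z35 36 an r of 0.90 and a rho of 0.87, and those of rs2z36 and rs2z35 36 an r of 0.92 and a rho of 0.90. The median member differed by 0.20, 0.22 and 0.24 on the log2 scale between these pairs. The level in mutant control had little relation to the fall, with an r of -0.06 and a rho of -0.12 over the same members.

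The steepest fall was that of Solyc03g006550, for which no description was used here. Its control levels were 72.8, 49.1 and 68.5 in rs2z35, 167, 92.9 and 41.7 in rs2z36 and 83.6, 166 and 85.2 in rs2z35 36 (CPM in replicates 1, 2 and 3). After HS they were 0.893, 1.57 and 0.801 in rs2z35, 1.19, 0.661 and 1.33 in rs2z36 and 1.37, 2.20 and 1.47 in rs2z35 36. The lowest control library was far above the highest HS library, although the control libraries of rs2z36 spread from 41.7 to 167 CPM. The log2FC was -5.83 ± 0.51, -6.58 ± 0.53 and -6.06 ± 0.50 (estimate ± SE in rs2z35, rs2z36 and rs2z35 36), with adjusted p of 3.45e-08 or lower in edgeR. The HS values rest on few reads, since the lowest HS library held 10 counts.

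Solyc08g006765, described as an N-acetyltransferase, an enzyme class that moves an acetyl group onto an amine, followed. In control it stood at 200.1, 139.9 and 166 in rs2z35, 198, 159.5 and 133 in rs2z36 and 144, 209 and 152 in rs2z35 36 CPM. In HS it stood at 4.91, 3.79 and 3.94 in rs2z35, 1.93, 1.59 and 2.07 in rs2z36 and 4.65, 3.94 and 2.80 in rs2z35 36 CPM. The 3 HS libraries of rs2z36 were the lowest 3 of the 9, below every library of rs2z35 and rs2z35 36. The log2FC was -5.32 ± 0.22, -6.46 ± 0.24 and -5.47 ± 0.22 (adjusted p of 8.37e-13 or lower, edgeR). The HS change of rs2z36 was lower than that of rs2z35 by -1.13 ± 0.32 on the log2 scale, which did not pass the test of the difference (adjusted p = 0.677, edgeR).

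The other 6 of the 8 steepest have no description used here. Solyc05g052670 had nearly equal control libraries, 166, 174 and 162 in rs2z35, 163, 163 and 159 in rs2z36 and 185, 176 and 141 in rs2z35 36 CPM. Its HS libraries were 7.27, 1.62 and 5.55 in rs2z35, 5.27, 3.37 and 1.55 in rs2z36 and 2.52, 5.27 and 5.94 in rs2z35 36 CPM, a spread of several fold inside each mutant around a mean 39.3-fold fall. Solyc05g007770 fell 32.8-fold on average, Solyc10g076670 29.1-fold, Solyc03g083730 25.7-fold, Solyc06g008920 23.7-fold and Solyc02g079890 20.2-fold. All 6 were called lower in all 3 mutants, and their mutant HS means lay between 2.0 and 5.16 CPM. Solyc02g079890 was the one with a mutant control mean below the 50 CPM of the rule, at 38.8 CPM.

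At the shallow end, 4 members fell least on average. Solyc06g008030 fell by about the same amount in every mutant, from 34.1, 52.5 and 51.4 in rs2z35, 42.4, 50.9 and 34.1 in rs2z36 and 64.5, 46.7 and 48.4 in rs2z35 36 CPM to 13.9, 18 and 11.3 in rs2z35, 11.9, 10.04 and 17.8 in rs2z36 and 19.8, 13.9 and 16.5 in rs2z35 36 CPM. The 9 HS libraries lay under the 9 control libraries, and the log2FC was -1.67 ± 0.23, -1.68 ± 0.23 and -1.67 ± 0.23 (adjusted p of 9.18e-06 or lower, edgeR). Solyc02g082120 and Solyc09g084450 fell 3.48-fold and 3.64-fold and were called in all 3 mutants. Solyc06g084020 was different, because its HS libraries lay far apart: 159, 32 and 124 in rs2z35, 141, 159.8 and 31.1 in rs2z36 and 45, 131 and 154 in rs2z35 36 CPM, against 489, 368 and 308 in rs2z35, 300.3, 281 and 372 in rs2z36 and 222, 399.8 and 386 in rs2z35 36 CPM in control. In each mutant 1 HS library was far below its companions, namely replicate 2 of rs2z35, replicate 3 of rs2z36 and replicate 1 of rs2z35 36. The same libraries were the lowest of their group for histone members described below. It was called in rs2z35 at -1.89 ± 0.56 (adjusted p = 0.00808), and not in rs2z36 at -1.52 ± 0.55 (adjusted p = 0.0266) or rs2z35 36 at -1.61 ± 0.55 (adjusted p = 0.0199, edgeR). The call in rs2z35 was lost without any of 5 of its 6 libraries in turn, with log2FC from -2.03 to -1.45.

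The members outside the called set were few, and 2 of them are named here after their values were seen. Solyc02g094400 was the single member whose mutant HS libraries did not all lie under its mutant control libraries. Its control libraries stood at 248, 168 and 21.9 in rs2z35, 44.6, 44.5 and 246 in rs2z36 and 25.3, 134 and 176 in rs2z35 36 CPM and its HS libraries at 35.8, 14.1 and 18.8 in rs2z35, 29.6, 32.6 and 50.1 in rs2z36 and 38.6, 44.8 and 32 in rs2z35 36 CPM. The control libraries split into a high and a low group in each mutant, and the low ones lay inside the range of all mutant HS libraries together. In rs2z35 36 the low one, at 25.3 CPM, lay below all 3 HS libraries of that mutant. The log2FC was -2.67 ± 0.81, -1.58 ± 0.78 and -1.54 ± 0.78, with adjusted p of 0.00947, 0.0956 and 0.103 in edgeR. Solyc12g013700, not called in rs2z35 36 (adjusted p = 0.0113, edgeR), had control libraries of 126, 99.4 and 16.7 in rs2z35, 24.5, 20.8 and 209 in rs2z36 and 18.8, 72.3 and 113 in rs2z35 36 CPM. These are high and low in the same libraries as Solyc02g094400. So were those of Solyc01g111880, described as MAP kinase kinase kinase 11, a kinase of the type that starts a phosphorylation cascade, at 89.1, 71.5 and 16.3 in rs2z35, 32.7, 42.5 and 127 in rs2z36 and 20.8, 67.5 and 78.2 in rs2z35 36 CPM in control and 7.59, 3.89 and 4.87 in rs2z35, 8.99, 13.7 and 12.9 in rs2z36 and 15.4, 6.61 and 4.19 in rs2z35 36 CPM in HS. It was called in all 3 mutants, at -3.44 ± 0.69, -2.51 ± 0.64 and -2.67 ± 0.66 (adjusted p of 0.00309 or lower, edgeR). These 3 had the largest spread between control replicates of all members.

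**Figure D3:**
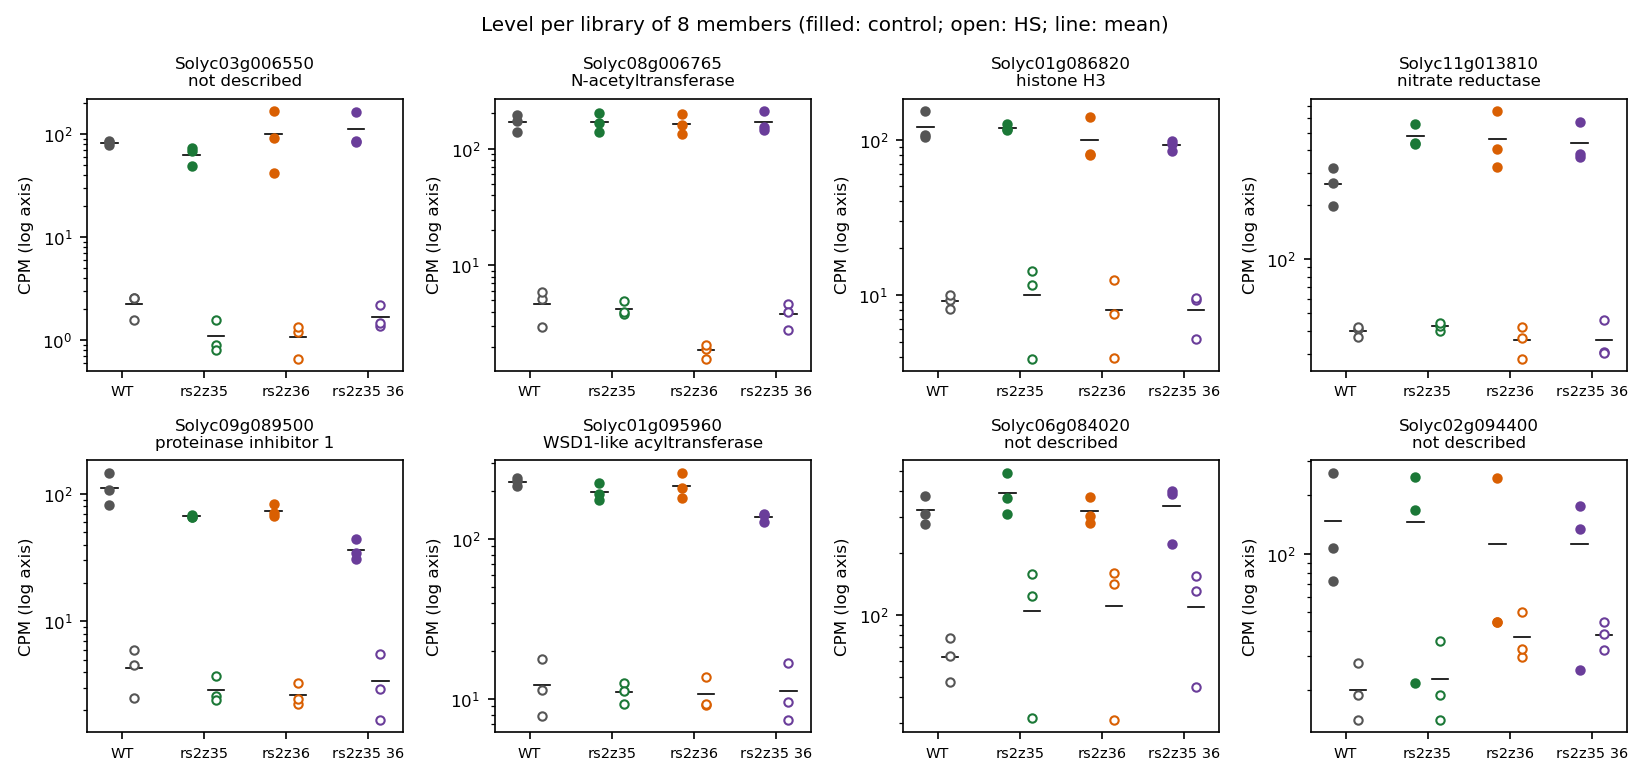
Level per library (log axis, CPM) of 8 members in WT and the 3 mutants; filled points are control libraries, open points HS libraries and lines the means of 3. In the first 6 panels control and HS are far apart in every genotype, Solyc06g084020 has 1 low HS library in each mutant, and Solyc02g094400 has control libraries that reach down into the HS range.

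Members with the most reads in mutant control fell as the others did. Solyc07g041720, with no description used here, stood at 1555, 1476 and 1056 in rs2z35, 1193, 1247 and 1455 in rs2z36 and 978, 1370.1 and 1352 in rs2z35 36 CPM in control. In HS it stood at 190.4, 105 and 217 in rs2z35, 205, 161 and 171 in rs2z36 and 141, 221 and 148 in rs2z35 36 CPM. Every HS library was far below every control library, and the log2FC was -2.99 ± 0.25, -2.86 ± 0.25 and -2.86 ± 0.25 (adjusted p of 2.80e-08 or lower, edgeR). Solyc02g063450, described as glycine-rich domain-containing protein 2, was at 841, 1226 and 1011 in rs2z35, 1281, 1251 and 1006 in rs2z36 and 996, 1059 and 981 in rs2z35 36 CPM in control. Its HS libraries were even, at 153, 173 and 147 in rs2z35, 199, 202 and 215 in rs2z36 and 223, 200.1 and 202 in rs2z35 36 CPM, and its log2FC was -2.70 ± 0.13, -2.52 ± 0.13 and -2.28 ± 0.13. Solyc03g123630, Solyc09g083435, Solyc08g074630, Solyc10g084320 and Solyc03g111720, none with a description used here, had mean mutant log2FC of -2.57, -2.39, -2.38, -2.08 and -3.75. Their mutant control means were 899.9, 863, 699, 626 and 569 CPM. The remaining 3 of these 10 were proteinase inhibitors, described with their group. CPM is not corrected for gene length, so it sets libraries side by side for 1 gene and does not rank genes against each other.

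Descriptions were used for 43 of the 165 members and for 2402 of the 24583 genes. They come from tables of the study that lean towards responding genes: on chromosome 1, 22.7% of the 1231 described genes tested were called lower in rs2z35, and 1.32% of the 1817 genes without a description. All 19 members on chromosome 1 were described, and of the 24 described members on the other chromosomes 21 stood in the study's table of mutant comparisons with WT. That table lists 868 genes, more than the study counts as differing, so a row in it is not a call. Groups of described genes are therefore read against the described genes, of which 23.2% were called lower in rs2z35, 23.9% in rs2z36 and 24.1% in rs2z35 36. No statement on the 122 members without a description follows from them.

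Histones, the proteins around which DNA is wound, were one such group, and their genes are expressed above all in cells that copy their DNA. Of 9 described histone genes tested, 5 were members, and 8 were called lower in HS in each mutant. Solyc01g099410, encoding histone H2A, stood at 568, 579 and 515 in rs2z35, 388, 375 and 645 in rs2z36 and 394, 421 and 471 in rs2z35 36 CPM in control. In HS it stood at 95.9, 53.1 and 92.9 in rs2z35, 63.6, 94.5 and 54.1 in rs2z36 and 60.7, 80.1 and 69.1 in rs2z35 36 CPM. The control libraries of rs2z36 differed among themselves, with replicate 3 well above the others, and still lay far above every HS library. The log2FC was -2.78 ± 0.25, -2.73 ± 0.25 and -2.61 ± 0.25 (adjusted p of 8.16e-08 or lower, edgeR). Solyc01g086820, encoding a histone H3, stood at 116, 125 and 116 in rs2z35, 79.6, 81.1 and 139 in rs2z36 and 84.2, 93.8 and 97.7 in rs2z35 36 CPM in control and 14.3, 3.89 and 11.6 in rs2z35, 7.58, 12.4 and 3.91 in rs2z36 and 5.19, 9.29 and 9.51 in rs2z35 36 CPM in HS. In each mutant 1 HS library was again markedly lower than its companions, and these were the same libraries as for Solyc06g084020. The log2FC was -3.60 ± 0.38, -3.64 ± 0.39 and -3.52 ± 0.39 (adjusted p of 6.34e-07 or lower, edgeR). The other histone H3 members Solyc01g074000, Solyc01g079110 and Solyc01g086800 had mean log2FC of -2.36, -3.45 and -3.08. Histone H3 genes are close copies of each other, so the share of each copy in the counts is uncertain. The 5 members summed to 622 to 1055 CPM in the 9 mutant control libraries and 75.8 to 149 CPM in the 9 HS libraries. The described histone gene that was not called, Solyc01g095650, was low in both conditions, with a mean of 2.16 CPM in mutant control and 1.68 CPM in mutant HS. DNA topoisomerase 2 (Solyc01g087500), which untangles DNA strands in dividing cells and is named after its values were seen, stood at 62.3, 90.5 and 91.3 in rs2z35, 52.9, 57.1 and 96.3 in rs2z36 and 61.1, 62.4 and 84.8 in rs2z35 36 CPM in control and 20.03, 13.4 and 17.9 in rs2z35, 18.4, 23.6 and 11 in rs2z36 and 10.6, 14.2 and 20.6 in rs2z35 36 CPM in HS. Its log2FC was -2.25 ± 0.29, -1.96 ± 0.29 and -2.19 ± 0.29.

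Proteinase inhibitors, small proteins that block the digestive proteases of insects and that wounding and jasmonate are known to induce in tomato leaves, were the largest described group. There were 11 members among 19 described inhibitor genes tested, and 16 of the 19 were called lower in HS in each mutant. This grouping was made after the values were seen. All 11 stand in the study's table of mutant comparisons with WT, so the group is not taken as independent of the genotypes. Over the 9 mutant control libraries the 11 summed to 2389 to 5797 CPM, and over the 9 HS libraries to 319 to 648 CPM. Solyc09g084490, encoding proteinase inhibitor 1 PPI3B2, stood at 642, 687 and 615 in rs2z35, 832, 748 and 788 in rs2z36 and 521, 501 and 498 in rs2z35 36 CPM in control and 123, 143 and 106 in rs2z35, 138, 144 and 114 in rs2z36 and 90.1, 131 and 107 in rs2z35 36 CPM in HS. Its log2FC was -2.38 ± 0.13, -2.58 ± 0.14 and -2.21 ± 0.13 (adjusted p of 2.29e-10 or lower, edgeR). Solyc06g150133, a cysteine proteinase inhibitor, stood at 725, 544 and 508 in rs2z35, 763, 719 and 1027 in rs2z36 and 268, 395 and 441 in rs2z35 36 CPM in control and 72.7, 58.6 and 54.2 in rs2z35, 72.4, 90.4 and 64.1 in rs2z36 and 40.3, 53.1 and 43.3 in rs2z35 36 CPM in HS. The highest HS library, at 90.4 CPM, was far below the lowest control library, at 268 CPM, and the log2FC was -3.26 ± 0.21, -3.47 ± 0.21 and -3.01 ± 0.21. Solyc06g073587 carries the same description and had nearly the same values, with means of 545 and 58.4 CPM in mutant control and HS. How any reads that match both genes were counted is not given in the sources used here. Solyc03g098795, a proteinase inhibitor type-2, stood at 632, 728 and 494 in rs2z35, 644, 582 and 792 in rs2z36 and 373, 426 and 411 in rs2z35 36 CPM in control and 85.7, 39.5 and 36.5 in rs2z35, 50.2, 70.3 and 42.8 in rs2z36 and 30.4, 23.1 and 29 in rs2z35 36 CPM in HS, a mean 12.7-fold fall. The inhibitors that were not called lower in any mutant, Solyc03g020030, Solyc03g020040 and Solyc09g084440, had HS means of 27.4, 39.4 and 5.50 CPM against 28.5, 28.4 and 5.07 CPM in mutant control.

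The waxy cuticle, which limits water loss through the epidermis, was represented by 3 members, a grouping also made after the values were seen. Solyc01g105450, described as ABC transporter G family member 11, exports wax and cutin precursors in Arabidopsis. It stood at 379, 208 and 361 in rs2z35, 455, 326 and 251 in rs2z36 and 317, 409.6 and 257 in rs2z35 36 CPM in control and 53.1, 74.5 and 35.2 in rs2z35, 47.4, 22.6 and 41.1 in rs2z36 and 27.2, 67.6 and 42.8 in rs2z35 36 CPM in HS. The log2FC was -2.54 ± 0.36, -3.22 ± 0.37 and -2.84 ± 0.37 (adjusted p of 1.23e-05 or lower, edgeR). Solyc01g095960, described as a WSD1-like O-acyltransferase, of the family that joins fatty acids and alcohols to wax esters, stood at 176, 190.1 and 223 in rs2z35, 208, 179.9 and 259.7 in rs2z36 and 143, 127 and 141 in rs2z35 36 CPM in control. Its HS libraries stood at 12.6, 11.3 and 9.31 in rs2z35, 13.7, 9.18 and 9.31 in rs2z36 and 7.40, 16.8 and 9.58 in rs2z35 36 CPM, and the log2FC was -4.15 ± 0.24, -4.33 ± 0.24 and -3.61 ± 0.24 (adjusted p of 6.94e-10 or lower, edgeR). ECERIFERUM 1 (Solyc01g088400), known from Arabidopsis for the making of wax alkanes, stood at 127, 114 and 128 in rs2z35, 111, 97.3 and 109.6 in rs2z36 and 81.2, 93.6 and 92.9 in rs2z35 36 CPM in control and 31.4, 18.4 and 29.6 in rs2z35, 20.9, 25 and 17.9 in rs2z36 and 19.99, 33.9 and 20.9 in rs2z35 36 CPM in HS, a mean 4.36-fold fall. The group was formed by words in the descriptions, and many of its genes are described only as GDSL esterase/lipases. Whether these act in the cuticle was not tested. Of the 21 described genes tested, 13 were called lower in rs2z35 and 12 in each of the other mutants. Called higher were 3 in rs2z35 and 2 in each of the others.

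Several members encode enzymes and carriers of primary metabolism, and they are named here after their values were seen. Nitrate reductase (Solyc11g013810), the entry step of nitrate into amino acids, stood at 439, 435 and 561 in rs2z35, 657, 404 and 324 in rs2z36 and 365, 573 and 382 in rs2z35 36 CPM in control and 39.9, 42.8 and 44.5 in rs2z35, 42.3, 28.1 and 36.7 in rs2z36 and 30.7, 45.7 and 30.1 in rs2z35 36 CPM in HS. The HS libraries were even and the log2FC was -3.49 ± 0.26, -3.69 ± 0.26 and -3.63 ± 0.26 (adjusted p of 3.71e-09 or lower, edgeR). In WT its control libraries were lower than all mutant control libraries, at 318, 263 and 196 in WT, and its HS libraries were alike, at 41, 37.1 and 41.9 in WT. Threonine deaminase (Solyc09g008670), which opens the pathway to isoleucine and has a form known as a defence protein in tomato leaves, stood at 416, 494 and 479 in rs2z35, 806, 832 and 483 in rs2z36 and 479, 263 and 345 in rs2z35 36 CPM in control and 61.9, 54.4 and 40.9 in rs2z35, 74.7, 60.5 and 53.7 in rs2z36 and 55, 39.9 and 52.6 in rs2z35 36 CPM in HS. It fell 9.0-fold on average. An amino acid permease (Solyc12g088190) stood at 31, 29.8 and 46 in rs2z35, 62.9, 54.5 and 25.8 in rs2z36 and 55.1, 37.5 and 27.2 in rs2z35 36 CPM in control and 5.36, 4.98 and 3.33 in rs2z35, 2.23, 1.85 and 2.44 in rs2z36 and 4.73, 3.86 and 3.78 in rs2z35 36 CPM in HS. Its log2FC was -2.96 ± 0.32, -4.46 ± 0.36 and -3.28 ± 0.34, and the steeper fall of rs2z36 against rs2z35 did not pass the test of the difference (adjusted p = 0.775, edgeR). Carbonic anhydrase (Solyc02g067750), which interconverts carbon dioxide and bicarbonate, fell 7.69-fold on average and a Delta(24)-sterol reductase (Solyc02g069490), an enzyme of sterol synthesis, 4.53-fold.

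Members with other roles are named here after their values were seen. A GH3 family protein (Solyc10g008520), of a family with enzymes that join auxin to amino acids, stood at 318, 322 and 271 in rs2z35, 265, 285 and 373 in rs2z36 and 248, 346 and 310.2 in rs2z35 36 CPM in control and 44.1, 23.3 and 29.7 in rs2z35, 28.7, 39.6 and 23.4 in rs2z36 and 22.9, 21.6 and 22.2 in rs2z35 36 CPM in HS. The log2FC was -3.23 ± 0.22, -3.33 ± 0.22 and -3.76 ± 0.23 (adjusted p of 1.33e-09 or lower, edgeR). A cellulose synthase (Solyc12g015770), which makes cell wall cellulose, fell 4.87-fold on average. LEXYL2 (Solyc01g104950), a beta-xylosidase of the tomato cell wall, fell 11.6-fold. A receptor-like protein kinase 5 (Solyc12g008500) fell 16.4-fold. A DnaJ chaperone (Solyc02g014860), a partner of HSP70 that helps proteins to fold, was a member too, and fell from 70.2, 66.2 and 85.3 in rs2z35, 146, 109 and 57.9 in rs2z36 and 119.8, 129.5 and 91.7 in rs2z35 36 CPM to 4.53, 14 and 7.52 in rs2z35, 11.5, 4.43 and 13.8 in rs2z36 and 14.7, 10.7 and 12 in rs2z35 36 CPM. Among 53 described genes of heat shock proteins and chaperones tested, 39 were called higher in rs2z35 and 2 lower. Of 17 described genes of auxin response tested, 1 of them a member, 4 were called lower and 4 higher in rs2z35, and of 53 described cell wall genes, 1 of them a member, 19 were called lower and 9 higher.

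The members varied more between replicates than other abundant genes. The median SD between replicates on the log2 scale was 0.264 in mutant control and 0.339 in mutant HS for members. It was 0.109 and 0.126 for the 3227 other genes of 50 CPM or more in mutant control. These genes were not matched to the low level of the members in HS, and the part of level in the spread was not tested. Within a group the members tended to deviate together. In rs2z35 HS, replicate 1 was the highest of 3 for 107 of 165 members, with a median deviation of 0.23 from the group mean on the log2 scale. In rs2z36 HS, replicate 3 was the lowest for 85, and in rs2z35 36 HS replicate 1 was the lowest for 89, at median deviations of -0.12 and -0.13. The other abundant genes had median deviations between -0.05 and 0.03 in all 24 libraries. A batch label was not given in the sources used here, and the part of the authors' batch adjustment in this pattern was not tested.

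The HS change of the members was then compared between the mutants, using no WT library. No member and none of the 24218 genes was called different in any of the 3 pairs of mutants, in edgeR (background 0% in each pair). At an unadjusted p below 0.05, 9 members had a lower and 0 a higher change in rs2z36 than in rs2z35, 1 lower and 5 higher in rs2z35 36 than in rs2z35, and 3 lower and 14 higher in rs2z35 36 than in rs2z36. Over all genes 1287, 1527 and 1106 passed that limit, which is 5.31, 6.31 and 4.57% of those tested. Lower were 5.45, 0.606 and 1.82% of members, where 2.86, 2.99 and 2.03% of all genes were. Higher were 0, 3.03 and 8.48% of members, where 2.46, 3.32 and 2.54% of all genes were. The members are not independent of each other, and these shares were not tested. DESeq2 called 0 members in each pair, and 3, 11 and 4 of all genes. The median SE of a member's difference was 0.32 to 0.33 on the log2 scale, and no difference was called at any size. The largest differences of members were -1.49 between rs2z36 and rs2z35 and 1.61 between rs2z35 36 and rs2z36.

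Each mutant was finally set beside WT within a condition. The WT libraries also chose the members for a high control and a low HS level, which tilts members to lower control and higher HS levels in the mutants, and the 3 mutants share the same WT libraries. The counts against WT are therefore a description from which nothing is read. In control, 0 members were called in rs2z35 (0.051% of all genes either way), 0 in rs2z36 (0.187%) and 3 in rs2z35 36, all lower (background lower 0.0467%). At an unadjusted p below 0.05, 29, 18 and 48 members were lower in control (17.6, 10.9 and 29.1%) and 10, 12 and 11 higher (6.06, 7.27 and 6.67%), where 4.30, 6.21 and 7.88% of all genes were lower and 6.20, 7.88 and 9.11% higher. DESeq2 called 0, 0 and 9 members lower. In HS, no member was called in edgeR in rs2z35 (background 0.0302%), rs2z36 (0.142%) or rs2z35 36 (0.19%), and DESeq2 called 1, 2 and 2 lower. At an unadjusted p below 0.05 (edgeR), 9, 25 and 22 members were lower in HS (5.45, 15.2 and 13.3%). Higher were 3, 2 and 4 members (1.82, 1.21 and 2.42%). Of all genes, 4.15, 6.97 and 6.55% were lower and 4.41, 8.24 and 7.65% higher. This lean of members to lower levels in HS is opposite to the tilt and was not tested. In both directions together all genes reached 8.56, 15.2 and 14.2% in HS. The glycine-rich domain protein gene Solyc02g063450 stood higher in HS than in WT in each mutant. That is the direction of the tilt, the gene was not called, and nothing is read from it. Its WT HS libraries were at 134, 123 and 139.7 in WT, below all 9 mutant HS libraries.

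The 3 members counted as lower in rs2z35 36 control were all proteinase inhibitors. All 3 stand in the study's own table of mutant comparisons with WT, so they are no independent evidence of a difference. Solyc09g089500, an inhibitor 1 PPI3B2, stood at 81.2, 107 and 146 in WT, 65.3, 65.6 and 68.6 in rs2z35, 83.5, 67.2 and 70.4 in rs2z36 and 44.6, 30.9 and 34.1 in rs2z35 36 CPM in control. The 3 libraries of rs2z35 36 were the lowest of the 12, and the log2FC against WT was -1.61 ± 0.19. Solyc03g098795, the type-2 inhibitor described above, had WT control levels of 791, 889 and 1024 in WT and differed by -1.16 ± 0.15. Solyc09g084480, described as protease inhibitor I, stood at 365, 414 and 621 in WT, 282, 259 and 286 in rs2z35, 237, 246 and 328 in rs2z36 and 213, 197 and 225 in rs2z35 36 CPM and differed by -1.14 ± 0.17. For each of the 3 the double mutant's libraries lay below all other control libraries. The calls were fragile: without replicate 2 or without replicate 3 of rs2z35 36 control no member was called, without WT control replicate 3 only 1 was, and without WT control replicate 1 there were 5.

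The double mutant was also compared with the single mutants in control, which uses no WT library and was added after the data were seen. No member was called in either comparison (edgeR; background 0.0454% and 0.0619%). At an unadjusted p below 0.05 (edgeR), 20 members were lower and 2 higher than in rs2z35, and 24 lower and 3 higher than in rs2z36. That is 12.1 and 14.5% lower and 1.21 and 1.82% higher. Of all genes, 4.44 and 3.95% were lower and 4.15 and 3.80% higher. Inhibitors were 9 and 10 of the lower members. The log2FC of all 11 inhibitor members was below 0 in both, at medians of -0.62 and -1.01. Those of the other members were -0.11 and -0.08, and the group was not tested. In HS the same comparisons gave 16 members lower and 4 higher than in rs2z35 (9.70 and 2.42%). Against rs2z36 they gave 8 lower and 9 higher (4.85 and 5.45%). Of all genes in HS, 6.59 and 4.28% were lower and 7.35 and 5.03% higher. All 11 inhibitors stand in the study's table of mutant comparisons with WT, which used the same mutant libraries. The contrast with the other members is therefore no independent evidence of a difference. As a description, their median log2FC in control against WT was -0.74 in rs2z35, -0.41 in rs2z36 and -1.17 in rs2z35 36, and that of the 154 other members -0.06, -0.12 and -0.26. The summed control level of the 11 was 4800 to 7569 CPM in WT, 3515 to 4276 CPM in rs2z35, 4054 to 5797 CPM in rs2z36 and 2389 to 2780 CPM in rs2z35 36. The double mutant did not overlap with the others, and the single mutants overlapped with each other and rs2z36 with WT. In HS the sums were 463 to 869 CPM in WT, 414 to 648 CPM in rs2z35, 444 to 595 CPM in rs2z36 and 319 to 433 CPM in rs2z35 36, and all neighbouring ranges overlapped except that of rs2z35 36 with rs2z36 and WT.

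**Figure D4:**
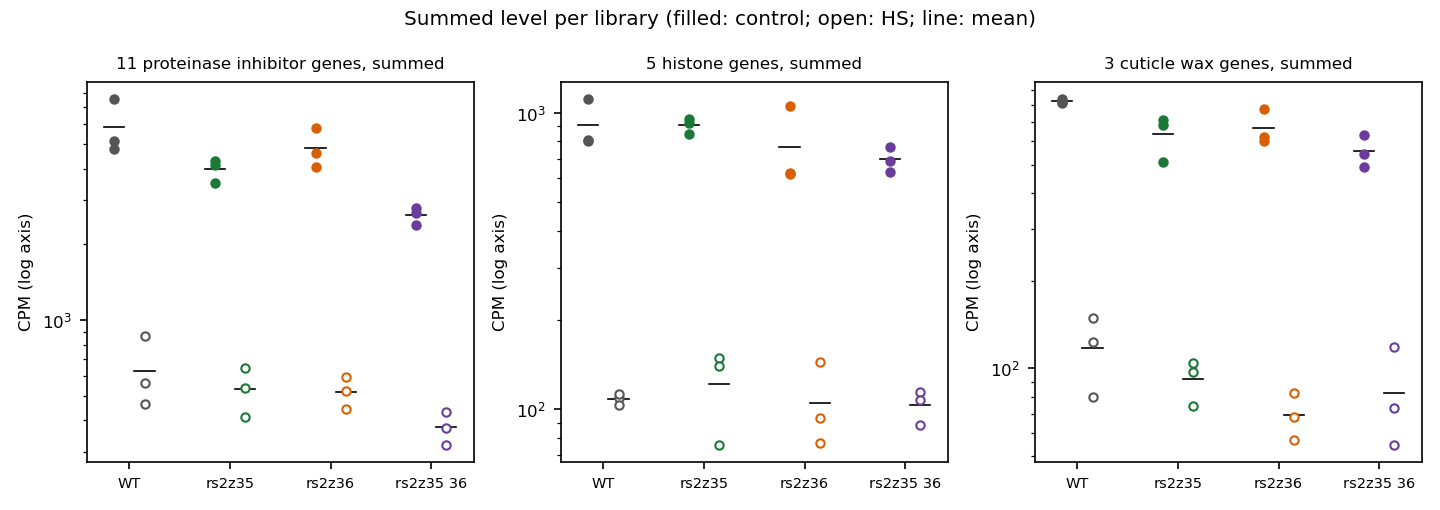
Summed level per library (log axis, CPM) of the inhibitor, histone and cuticle wax members in WT and the 3 mutants; filled points are control libraries, open points HS libraries and lines the means of 3. Control and HS are apart in every genotype in all 3 panels, and in the first panel the rs2z35 36 control libraries, at 2389 to 2780 CPM, lie under all other control libraries. The inhibitors of that panel all stand in the study's table of mutant comparisons with WT, so this is no independent evidence.

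Members often lay close to each other in the genome. On the numbering of the gene identifiers, which runs along each chromosome, 44 of the 165 members (26.7%) had another member within 100 numbers, and so did 327 of 3208 other genes (10.2%) of 50 CPM or more in WT control. The largest runs held inhibitors: Solyc03g098710, Solyc03g098720, Solyc03g098760, Solyc03g098790 and Solyc03g098795 on chromosome 3, and Solyc09g089490, Solyc09g089500, Solyc09g089520, Solyc09g089530 and Solyc09g089540 on chromosome 9, of which Solyc09g089490, Solyc09g089530 and Solyc09g089540 have no description used here. Solyc09g089540 fell 17.5-fold on average. Another run, of Solyc09g084450, Solyc09g084480 and Solyc09g084490, also lay on chromosome 9. Reads of similar neighbouring copies can be assigned wrongly or left out, and the libraries were not strand-specific, so members of a run are not independent counts. Members were found on all 12 numbered chromosomes, from 5 on chromosome 7 to 20 each on chromosomes 6 and 9.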

How the data were processed

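RNA-seq of 24 leaf libraries was analysed as read counts per gene, which the authors deposited after alignment by STAR (genome SL4.0, annotation ITAG4.0) and counting by HTSeq 0.9.1; the library kit does not mark strand. The authors adjusted the HS counts for batches with ComBat-Seq, which shrinks differences between HS replicates and can alter HS against control. Members were picked on CPM with TMM factors (edgeR 4.0.16, R 4.3.3). Tests were edgeR quasi-likelihood tests with Benjamini-Hochberg adjustment over all genes with a read sum of 10 or more. HS against control and its differences between mutants used the 18 mutant libraries, and mutant against WT the 12 libraries of a condition. An SE is the log2FC divided by the root of the test's F value. Genes were called at |log2FC| above 1 and adjusted p below 0.01. DESeq2 1.42.0 was an alternative. Totals of 16853134 to 23929283 counts per library left each member at least 10 counts in its lowest mutant HS library (median over members 163). The methods call the replicates biological, but how plants were divided among them is not given in the sources used here. Replicate pairs differed by more than sampling noise (chi-square per degree of freedom of 4.75 or more).

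The members and gene groups were chosen with earlier results of these data known. The 10 members with most control reads, the 8 with the largest and 4 with the smallest fall, those called between genotypes, the 2 most abundant of each described group and the genes at the thresholds were named by rule; others are marked in the text. The groups used were defence proteins (49 genes tested, 9 members, all of them inhibitors), chromatin (16 tested, 5 members, all histones), histones, proteinase inhibitors and cuticle wax. Gene descriptions came from the study's tables. Promoter sequences and gene structures were not used here. The scripts were tested on simulated data.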

Additional observations from a re-analysis of the deposited data

How the results depend on the processing

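The counts of members called lower in HS changed little under every alternative run, at 163 to 165 in rs2z35, 162 to 164 in rs2z36 and 162 to 164 in rs2z35 36 with all libraries kept, and 161 to 164, 158 to 163 and 158 to 163 with each library left out in turn. No member was called different in its HS change between 2 mutants under any alternative or with any library left out (0 to 0). The number of members depended on the rule: 459 with library totals as scaling, 274 at 33.3% instead of 25%, 98 at 100 CPM instead of 50, and 158 to 179 with a WT library left out. Members called lower in rs2z35 36 control against WT numbered 3, and 9 with DESeq2, 6 with no filter on low counts, 6 with the replicate number as a block, 0 to 5 with a library left out, and 0 with either single mutant in place of WT, an alternative chosen after seeing the data. In HS against WT, DESeq2 called 1 member lower in rs2z35, 2 in rs2z36 and 2 in rs2z35 36, where edgeR called 0. The cause of these shifts was not tested. Over all genes, DESeq2 called 147 in rs2z35 36 control and 107 in rs2z35 36 HS against WT, where edgeR called 41 and 44. By the correlation of their deviations from group means, same-numbered libraries moved together in WT and rs2z36 control (0.38, 0.27 and 0.59), where the replicate block left the members called at 0 as before. In the other comparisons made not every pair reached 0.1. The range was -0.52 to 0.65 in control and -0.68 to 0.08 in HS, where 17 of 18 values were negative. With the replicate block, 163, 162 and 162 members were called lower in HS in rs2z35, rs2z36 and rs2z35 36. The depth limited single values in HS, since 10 members had fewer than 30 counts in their lowest mutant HS library.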
